A study of Mus musculus with 18 samples.

Results

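A set of 10 genes of the cornified envelope was followed across mouse skin treated with laundry detergent. They were Ivl, Lor, Ppl, Evpl, Tgm1, Tgm3, Cdsn, Calml3, Krtdap and Sbsn, taken from a list of names for their part in the envelope, with earlier results of these data known. All 10 were found among the 41605 Ensembl genes in the deposited tables after matching the gene identifiers to mouse symbols. Expression was measured by bulk RNA sequencing of skin from C57BL/6 mice, 8 to 12 weeks of age. The 18 libraries formed 3 groups of 6, treated with detergent B, detergent A or PBS, the phosphate-buffered saline control. The labels give neither the detergents' contents nor the dose, the length of treatment, the body site or the cage. Since nothing in them states that the 6 libraries of a group come from 6 animals, the p-values cover only the spread among libraries, which may be technical.

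The cornified envelope is a shell of cross-linked protein that replaces the plasma membrane of keratinocytes as they become the dead cells of the skin surface. Plakin scaffold proteins and involucrin are laid down under the membrane first, transglutaminases then join glutamine and lysine side chains between proteins, and loricrin is added later to make up most of the protein mass. Lipids are attached to the outside, corneodesmosomes hold neighbouring cells together, and several secreted and calcium-binding proteins mark the same stage of differentiation.

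The genes lie on 8 chromosomes of the GRCm38 assembly, each as a protein-coding gene in the GENCODE M21 annotation. Ivl (chr3:92570902-92573735) and Lor (chr3:92080271-92083142) belong to the epidermal differentiation complex, 488.0 kb apart with 19 protein-coding genes between them, and each has 2 exons on the minus strand. Sbsn (chr7:30751471-30756134) and Krtdap (chr7:30787896-30791097) are plus-strand genes 31.8 kb apart, with Dmkn (dermokine, another secreted protein of differentiating keratinocytes) as the only protein-coding gene between them. Calml3 (chr13:3802896-3804316) is a single-exon gene 33.4 kb from Calm4, another calmodulin-like gene. The other 5 are Ppl (chr16:5086291-5132421), Evpl (chr11:116220559-116238077), Tgm1 (chr14:55700009-55713926), Tgm3 (chr2:130012349-130050399) and Cdsn (chr17:35552128-35557180). Tgm1 shares 182 exonic bases with the opposite-strand gene Gm49067, and Sbsn shares 279 with Tmem147os on its own strand. The sources used here do not give the strand and overlap settings of the counting, so reads in those bases cannot be assigned with certainty.

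RefSeq promoter windows on GRCm38.p6, from 250 bases before to 50 bases after the start site, were available for 7 of the 10 genes, as 9 windows. They are shown because 4 of these 7 genes, Ivl, Lor, Krtdap and Sbsn, held the 7-base AP-1 motif TGANTCA, whose reverse complement is the same pattern. Of all 32817 windows in the table, 7.81% held it, with any base counted at N. The 4 sequences run 5′ to 3′ on the gene's strand from base -150 to base 1, the start site, and capitals mark the AP-1 matches.
Ivl, chr3:92573735-92573885, minus strand: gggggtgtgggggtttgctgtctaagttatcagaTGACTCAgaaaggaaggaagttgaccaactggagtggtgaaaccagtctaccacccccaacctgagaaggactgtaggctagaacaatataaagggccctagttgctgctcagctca
Lor, chr3:92083142-92083292, minus strand: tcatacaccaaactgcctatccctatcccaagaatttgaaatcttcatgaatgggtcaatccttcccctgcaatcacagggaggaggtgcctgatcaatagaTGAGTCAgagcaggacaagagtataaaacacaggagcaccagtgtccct
Krtdap, chr7:30787755-30787905, plus strand: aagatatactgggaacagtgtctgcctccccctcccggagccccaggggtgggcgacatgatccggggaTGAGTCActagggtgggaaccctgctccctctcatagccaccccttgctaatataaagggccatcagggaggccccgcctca
Sbsn, chr7:30751321-30751471, plus strand: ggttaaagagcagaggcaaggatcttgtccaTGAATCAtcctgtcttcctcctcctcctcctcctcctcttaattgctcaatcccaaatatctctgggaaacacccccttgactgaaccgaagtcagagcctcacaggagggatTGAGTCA
The match begins at base -116 in Ivl, -48 in Lor and -81 in Krtdap, and Sbsn has one at base -119 and one at base -6. The Sbsn match at -119 reads TGAATCA, with A at the open base, whereas the others read TGACTCA or TGAGTCA. The TATA motif TATAAA, searched on both strands, was also in 4 of the 7 genes, Ivl, Lor, Tgm3 and Krtdap, each time between bases -30 and -27, against 13.6% of all windows. GGGTGTG, a KLF motif, was in Ivl and Tgm3, against 7.95% of windows. AACCNGTT, the grainyhead-like motif, was in none of the 7, against 2.08% of windows. A match is a description of letters and not evidence that a factor binds there.

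Read depth ran from 17312623 to 29599018 counts per library, and values below are counts per 1000000 counts (CPM) after TMM scaling of the library sizes. All 10 genes passed the filter on low counts, with the lowest value of any library at 12.2 CPM (Tgm3 in PBS replicate 5). Hair keratin RNA differed widely between libraries within every group. The summed CPM of 9 hair shaft keratin genes had a lowest, median and highest value of 1.87, 15.1 and 175.0 with detergent B, 0.527, 56.4 and 268.0 with detergent A, and 13.1, 262.0 and 454.0 with PBS. PBS replicate 6 is the PBS library at 13.1 CPM, and it held the highest PBS value for 9 of the 10 genes. Where leaving it out changed a call or moved a value widely, both values are given.

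With CPM divided by summed exon length in kilobases, levels can be set side by side between genes. Krtdap was the highest of the 10 in every group, at 3892 ± 931.0 CPM per kb with detergent B, 3374 ± 1073 with detergent A and 2206 ± 713.0 with PBS (SD, n = 6 each), and its libraries overlapped no other gene's. Tgm3 was the lowest in every group, at 17.8 ± 4.9, 14.0 ± 4.28 and 8.67 ± 4.09 CPM per kb with detergent B, detergent A and PBS, and its range also stood apart from its neighbour's in the order. Between these ends the mean order with detergent B was Sbsn, Cdsn, Lor, Calml3, Ivl, Ppl, Tgm1 and Evpl. In that group the ranges of neighbours overlapped from Sbsn through to Ivl and for Tgm1 and Evpl, while Ivl lay above Ppl and Ppl above Tgm1 in all libraries. With detergent A the order of means was the same, and Ppl and Tgm1 overlapped too. With PBS, Lor stood above Cdsn and Evpl above Tgm1 by mean, with overlapping ranges, whereas Ivl overlapped Ppl. Exon lengths are those of all annotated isoforms together, so the per-length values are approximate.

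**Figure D1:**
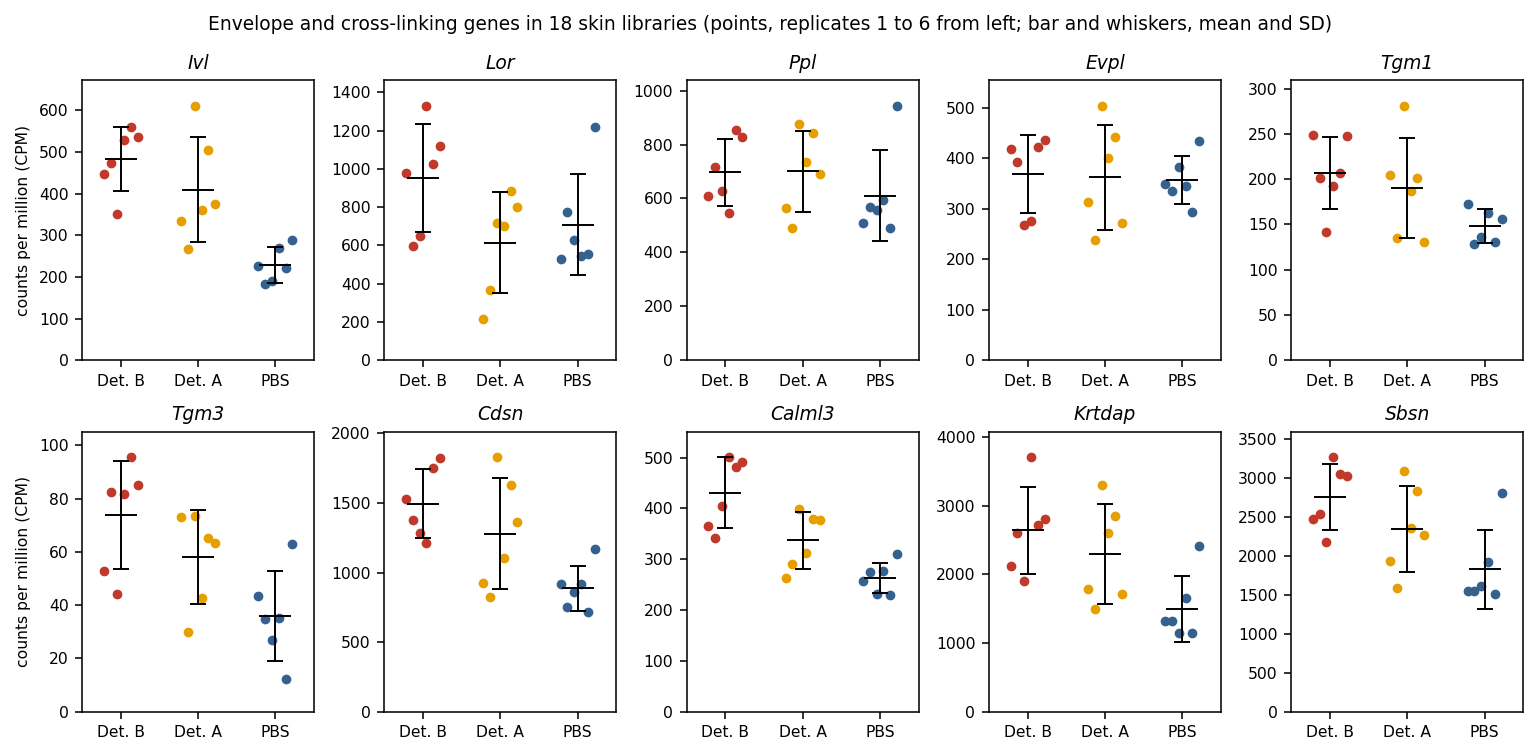
CPM of each of the 10 genes (vertical axis, from 0) in the 18 libraries, with detergent B left, detergent A in the middle and PBS right; points are libraries in the order of their replicate number, and the bar and whiskers are the mean and SD of 6 libraries. Every detergent B library stands above every PBS library for Ivl, Cdsn and Calml3, and PBS replicate 6 tops the PBS group for 9 genes.

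Detergent B against PBS asks how treated skin differed from control skin, the comparison the series describes. Ivl rose 2.10-fold, Cdsn 1.68-fold and Calml3 1.64-fold in detergent B skin, and these were the 3 of 10 genes that passed edgeR's quasi-likelihood test at a Benjamini-Hochberg adjusted p under 0.05. Of all 16836 genes tested, 1.97% were called higher with detergent B and 1.08% lower. The other 7 genes missed the threshold, although all 10 log2 fold changes were above 0, with a median of 0.65 against -0.01 over all genes tested. In bulk skin, fewer cells of a type and less RNA per cell cannot be told apart, and the same holds for more cells and more RNA.

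Ivl encodes involucrin, a glutamine-rich precursor that is among the first proteins to be cross-linked. Its lowest, median and highest values were 350.0, 501.0 and 559.0 CPM with detergent B, and 182.0, 223.0 and 288.0 CPM with PBS. The groups did not overlap, and the highest PBS value was that of replicate 6. Means were 483.0 ± 77.1 CPM with detergent B and 229.0 ± 42.7 CPM with PBS (SD, n = 6 each). The log2 fold change was 1.07 ± 0.18 (SE), the 95% interval of the fold ran from 1.62 to 2.73, and the edgeR adjusted p was 0.01057. Every library of detergent B lay above every PBS library for 1.72% of all genes tested. The call held in all 18 fits that left out 1 library each.

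Lor encodes loricrin, the glycine-rich protein that makes up most of the envelope. It ran from 595.0 through a median of 1001 to 1330 CPM with detergent B, and from 530.0 through 592.0 to 1218 CPM with PBS. The groups overlapped: 1 of the 6 detergent B libraries stood above every PBS library, and PBS replicate 6 at 1218 CPM was far above the next PBS library at 772.0 CPM. The fold of 1.34 had an interval of 0.863 to 2.08 (edgeR adjusted p = 0.4092), and without PBS replicate 6 its log2 value was 0.65 against 0.42 with all libraries, with an adjusted p of 0.148 and an unadjusted p of 0.04209. Ppl and Evpl encode periplakin and envoplakin, plakins that tie keratin filaments and desmosomes to the forming envelope. Ppl spanned 546.0 to 854.0 CPM with detergent B and 489.0 to 944.0 CPM with PBS, at a fold of 1.14 with an interval of 0.888 to 1.47 (edgeR adjusted p = 0.5234). Evpl spanned 268.0 to 436.0 CPM with detergent B and 293.0 to 435.0 CPM with PBS, at a fold of 1.04 with an interval of 0.803 to 1.33 (edgeR adjusted p = 0.8916). A change as large as that of Ivl was outside both intervals. Evpl values lay on top of each other, whereas the overlap of Ppl came mostly from PBS replicate 6 at 944.0 CPM. The next PBS library had 594.0 CPM, and 5 of the 6 detergent B libraries were above it. Without replicate 6 the log2 fold change of Ppl was 0.36 against 0.19 with all libraries (edgeR adjusted p = 0.1153), and limma's quality-weighted voom on all libraries called Ppl at an adjusted p of 0.02736. That voom fit called 5074 of all 16836 genes.

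Tgm1 encodes the membrane-anchored transglutaminase of keratinocytes, and Tgm3 a soluble transglutaminase, activated by proteolysis, that is made in the hair follicle as well as in the epidermis. Tgm1 ran from 142.0 through a median of 204.0 to 249.0 CPM with detergent B, and from 128.0 through 146.0 to 173.0 CPM with PBS. A total of 5 of the 6 detergent B libraries were above every PBS library, yet the fold of 1.40 (interval 1.10 to 1.78) missed the threshold at an edgeR adjusted p of 0.1023. Tgm3 ran from 44.2 through 82.2 to 95.6 CPM with detergent B, and from 12.2 through 34.9 to 62.8 CPM with PBS. It had the next largest fold after Ivl, 2.06 (interval 1.33 to 3.18), but 2 detergent B libraries fell within the PBS range and the edgeR adjusted p was 0.06252. Without PBS replicate 6 the log2 fold change of Tgm3 was 1.27 and its edgeR adjusted p 0.01748, in a fit that called 1157 of all genes higher. Tgm3 passed in 4 of the 18 fits that left out 1 library each.

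Cdsn encodes corneodesmosin, an adhesive protein of the junctions between cornified cells. It ran from 1209 through a median of 1452 to 1826 CPM with detergent B, and from 714.0 through 886.0 to 1172 CPM with PBS, with no overlap. The log2 fold change was 0.75 ± 0.18 (SE), the interval of the fold ran from 1.29 to 2.20, and the edgeR adjusted p was 0.03719. This call was the least stable of the 3: it was lost in the 8 fits without PBS replicate 1, 2, 3, 4 or 5 or detergent B replicate 2, 5 or 6, although the log2 fold change stayed between 0.69 and 0.85 over all 18 such fits.

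Calml3 encodes a calmodulin-like calcium-binding protein of differentiating epithelia. It ran from 341.0 through a median of 443.0 to 501.0 CPM with detergent B, and from 230.0 through 266.0 to 310.0 CPM with PBS, again with no overlap. The log2 fold change was 0.71 ± 0.12 (SE), the interval of the fold ran from 1.37 to 1.96, and the edgeR adjusted p was 0.0114. The call held in all 18 fits that left out 1 library each. Krtdap and Sbsn, which encode the secreted proteins keratinocyte differentiation-associated protein and suprabasin, stood just outside the threshold. Krtdap ran from 1898 through 2657 to 3708 CPM with detergent B and from 1138 through 1320 to 2409 CPM with PBS, at a fold of 1.76 with an interval of 1.27 to 2.45 (edgeR adjusted p = 0.0531). Sbsn ran from 2179 through 2777 to 3263 CPM with detergent B and from 1514 through 1580 to 2804 CPM with PBS, at a fold of 1.51 with an interval of 1.17 to 1.95 (edgeR adjusted p = 0.06811). For both, PBS replicate 6 was the only PBS library inside the detergent B range. Without it their log2 fold changes were 1.01 and 0.76, with edgeR adjusted p of 0.01184 for Krtdap and 0.01153 for Sbsn. That fit called 1157 of all genes higher, against 332 with all libraries. Krtdap passed in 6 of the 18 fits that left out 1 library each and Sbsn in 3, so replicate 6 was not the only library with this effect.

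**Figure D2:**
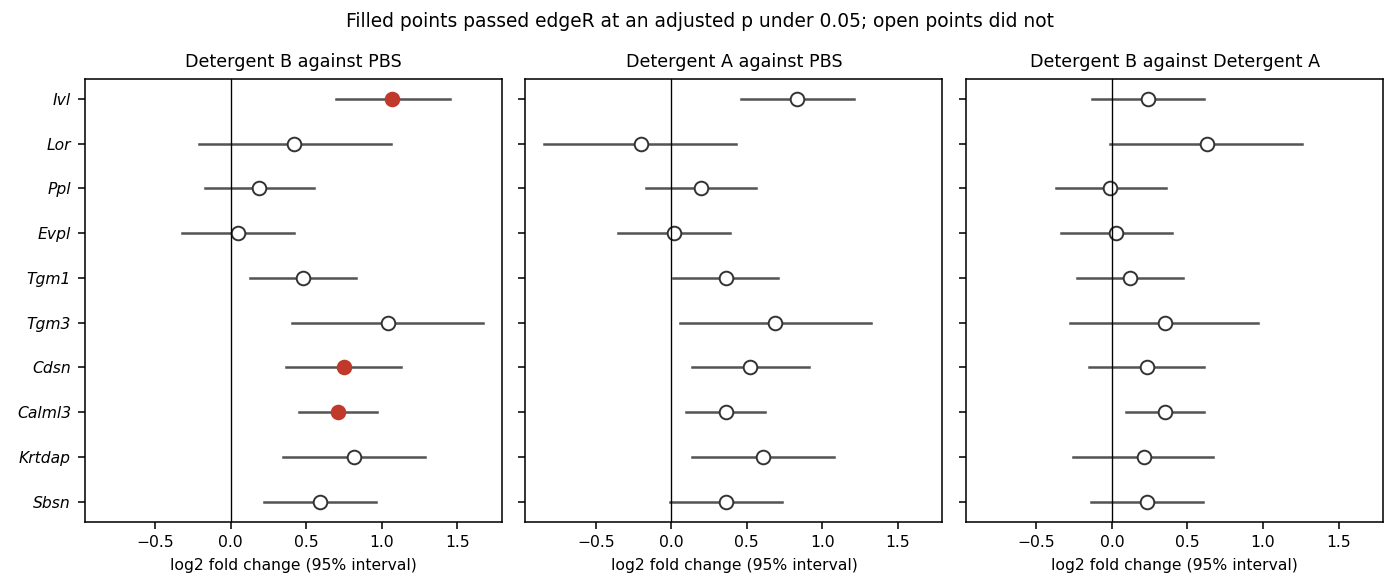
Log2 fold changes of the 10 genes (horizontal axis, points with 95% intervals not adjusted for the number of genes) in the 3 comparisons, detergent B against PBS, detergent A against PBS and detergent B against detergent A; filled points passed edgeR at an adjusted p under 0.05. Ivl, Cdsn and Calml3 in detergent B against PBS are the 3 filled points, and Lor is the gene with a negative value in detergent A against PBS.

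Detergent A against PBS used the same 6 PBS libraries, so its values are not independent of those above. None of the 10 genes passed edgeR's test, against 0.0535% of all genes tested called higher and 0.137% lower. An unadjusted p under 0.05 was found for 6 of the 10, and for 3158 of all 16836 genes tested. For none of the 10 did every detergent A library lie above every PBS library, against 0.404% of all genes tested. The median log2 fold change of the 10 was 0.36, against -0.01 over all genes tested. DESeq2 called 1 of the 10, Ivl, and limma's quality-weighted voom called 7. Over all genes DESeq2 called 777 of the 28046 it was run on, and voom 3914 of 16836.

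Ivl again had the largest difference of the 10 genes. Its lowest, median and highest values were 268.0, 367.0 and 611.0 CPM with detergent A, and 182.0, 223.0 and 288.0 CPM with PBS. A total of 5 of the 6 detergent A libraries lay above every PBS library, and replicate 2 was the exception. The fold was 1.78 with an interval of 1.38 to 2.31, and the edgeR adjusted p was 0.0548. Without detergent A replicate 2 the adjusted p was 0.01311, without PBS replicate 6 it was 0.02443, without detergent A replicate 6 it was 0.02517 and without detergent B replicate 4 it was 0.04158. In that order, those fits called 504, 565, 475 and 101 of all genes higher, against 9 with all libraries. Lor was the gene with a log2 fold change below 0 among the 10. It ran from 213.0 through a median of 710.0 to 886.0 CPM with detergent A, and from 530.0 through 592.0 to 1218 CPM with PBS. Replicates 1 and 2 of detergent A, at 213.0 and 366.0 CPM, lay below every PBS library and the other 4 within the PBS range. Its fold was 0.868 with an interval of 0.559 to 1.35 (edgeR adjusted p = 0.7517), and the log2 value was 0.02 without PBS replicate 6.

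The plakins and the transglutaminases also stayed short of the threshold with detergent A. Ppl spanned 491.0 to 875.0 CPM and Evpl 238.0 to 504.0 CPM with detergent A, with folds over PBS of 1.15 (interval 0.892 to 1.47) and 1.01 (interval 0.787 to 1.31). Tgm1 spanned 130.0 to 281.0 CPM and Tgm3 29.9 to 73.4 CPM with detergent A, with folds of 1.29 (interval 1.01 to 1.64) and 1.62 (interval 1.05 to 2.50). For each of the transglutaminases 4 of the 6 detergent A libraries lay above every PBS library. Cdsn at 824.0 to 1830 CPM, Calml3 at 263.0 to 399.0 CPM, Krtdap at 1491 to 3307 CPM and Sbsn at 1581 to 3086 CPM with detergent A all overlapped PBS. Their folds were 1.44 for Cdsn, 1.28 for Calml3, 1.53 for Krtdap and 1.28 for Sbsn, and the edgeR adjusted p-values lay between 0.1409 and 0.2795. Krtdap passed without PBS replicate 6, at a log2 fold change of 0.80 against 0.61 with all libraries (adjusted p = 0.03637), and Cdsn passed without detergent A replicate 2 (adjusted p = 0.04564). Over all genes those fits called 565 and 504 higher, against 9 with all libraries. Without PBS replicate 6 the log2 fold change of Ppl was 0.36 against 0.20 with all libraries (adjusted p = 0.1424). For Tgm3 it was 0.92 against 0.69 (adjusted p = 0.07337) and for Sbsn 0.52 against 0.36 (adjusted p = 0.05555), all from edgeR.

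The coefficient of variation of the 10 genes was 15.2% to 29.7% with detergent B, 16.7% to 43.1% with detergent A and 11.5% to 47.1% with PBS. It was larger with detergent A than with detergent B for all 10 genes, and larger than with PBS for 6, given as a description with no test. Within the detergent A group, 1 library stood at the top for 9 of the 10 genes, all but Lor: replicate 3, with Ivl at 611.0, Cdsn at 1830 and Krtdap at 3307 CPM. Replicate 2 was the lowest for 7 genes, Ivl, Ppl, Evpl, Tgm3, Cdsn, Krtdap and Sbsn, and it also had the highest hair shaft sum of its group at 268.0 CPM. In the detergent B group, replicate 3 was the lowest for 6 genes and had the highest hair shaft sum of that group at 175.0 CPM. Other libraries did not pair in this way. PBS replicate 5 was the lowest for 7 genes at a hair shaft sum of 272.0 CPM, below the 454.0 CPM of PBS replicate 1. Detergent A replicate 3 had a sum of 9.85 CPM, above replicates 4 and 5 at 1.04 and 0.527 CPM. Detergent B replicate 4, the highest for 4 genes, had 13.3 CPM, above replicate 5 at 1.87 CPM. Fits with the hair shaft score as a covariate are given with the hair genes below.

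The 2 detergents were also compared directly. None of the 10 genes, and none of the 16836 tested, passed edgeR's test between detergent B and detergent A, while 550 genes had an unadjusted p under 0.05; DESeq2 and limma's voom also called 0. The median log2 fold change of the 10 was 0.23, against 0.00 over all genes. The intervals, which are not adjusted for the number of genes, show what differences these libraries leave possible. Lor had the largest one, at 950.0 ± 282.0 CPM with detergent B and 615.0 ± 265.0 CPM with detergent A (SD, n = 6 each), a fold of 1.54 with an interval of 0.993 to 2.40 (edgeR adjusted p = 0.9887). A total of 4 of the 6 detergent B libraries stood above every detergent A library for Lor, and likewise for Calml3 and Tgm3. For none of the 10 did all 6 do so, against 0.0297% of all genes. Calml3 averaged 431.0 ± 69.5 CPM with detergent B and 337.0 ± 56.3 CPM with detergent A (SD, n = 6 each), a fold of 1.28 with an interval of 1.07 to 1.53 and the same edgeR adjusted p. Ivl had a fold of 1.18 between the detergents, with an interval of 0.914 to 1.52, and Tgm3 one of 1.27, with an interval of 0.825 to 1.96. Ppl and Evpl were nearest to 1, at 0.996 (interval 0.775 to 1.28) and 1.02 (interval 0.791 to 1.32). A p that misses the threshold does not show that the detergents act alike.

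Most pairs of the 10 genes varied together between libraries of the same group. Over the 45 pairs of genes, the Pearson r of log2 CPM centred on group means, across 18 libraries, was 0.65 at the median and above 0.5 for 38 pairs, with none below 0. Krtdap and Sbsn, the neighbours on chromosome 7, made the most alike pair at 0.93, and Lor and Tgm1 the least alike at 0.15. These r values are descriptions, since the libraries share their tissue makeup and scaling. The share of pairs above 0.5 among other genes was not worked out. For each of the 10, the 3 most alike genes came from outside the 10. Among the 13899 genes compared, those nearest to Lor were late cornified envelope genes of the same complex, Lce1c, Lce1a1 and Lce1a2, at 0.945 to 0.947, although reads of this near-identical family may not be separable. The nearest to Sbsn was Dmkn at 0.987, followed by its exon-sharing neighbour Tmem147os at 0.968 and Acsl5 at 0.966. Ivl was nearest to Zfp772, to Asprv1 (a filaggrin-processing protease) and to Dhrs1, at 0.924 to 0.942. Cdsn was nearest to Pcdh1, Smpd3 and the lipid envelope gene Pnpla1, at 0.957 to 0.978, and Krtdap to Dynlt3, Perp (a desmosome protein) and Atp6v0e, at 0.963 to 0.971. Tgm3 was nearest to Sgpp2, Serpinb3b and Aox4, at 0.879 to 0.93, and Serpinb3b belongs to a family of near-identical genes. Evpl was nearest to Scap, Zbtb7b and Fam129b at 0.96 to 0.978, Ppl to AL732309.1, Rora and Acap2 at 0.962 to 0.969, Tgm1 to Clint1, Cyb561d2 and Pdss1 at 0.934 to 0.948, and Calml3 to Tle6, Slc46a1 and Tob1 at 0.915 to 0.918.

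**Figure D3:**
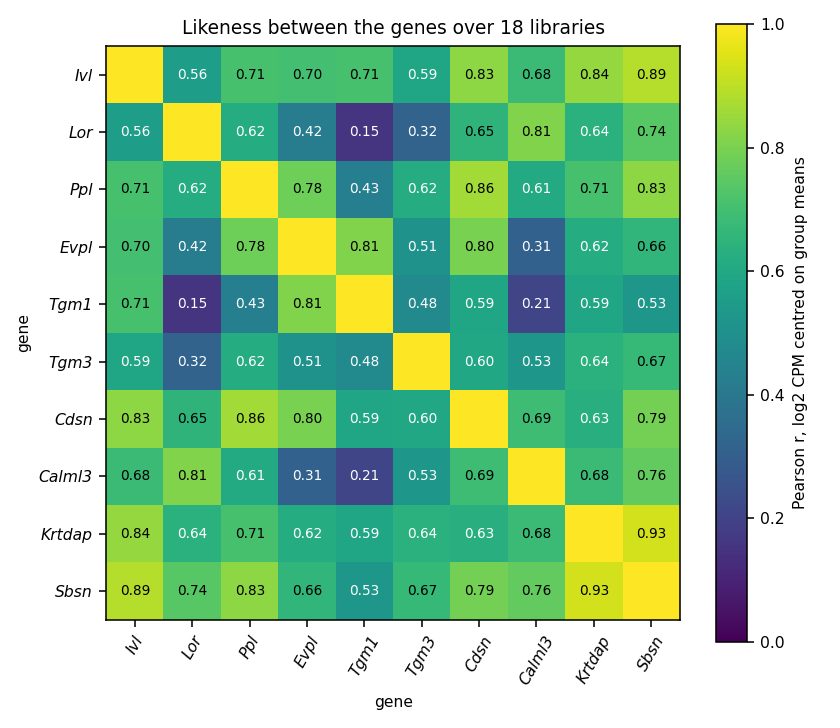
Pearson r between the 10 genes (both axes), computed on log2 CPM centred on group means over 18 libraries, with the colour scale showing r. Krtdap and Sbsn are the most alike at 0.93 and Lor and Tgm1 the least at 0.15, and no pair is below 0.

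Keratins of the suprabasal layers moved with these genes. Krt1, the type II keratin that replaces the basal keratins as cells leave the basal layer, rose 2.78-fold with detergent B, at 12567 ± 3337 CPM against 4523 ± 1376 CPM with PBS (SD, n = 6 each, edgeR adjusted p = 0.01591). Krt10, its type I partner, had a fold of 1.88 (adjusted p = 0.06519), and the basal keratins Krt5 and Krt14 had folds of 1.23 (adjusted p = 0.3104) and 1.47 (adjusted p = 0.2395), all from edgeR. The summed CPM of 5 suprabasal markers had a lowest, median and highest value of 18666, 27960 and 33652 with detergent B, 12269, 18748 and 31393 with detergent A, and 7368, 12405 and 18630 with PBS. For 6 basal markers the 3 values were 11226, 16029 and 19710 with detergent B, 10438, 20271 and 24714 with detergent A, and 10444, 11671 and 16731 with PBS. The suprabasal keratin score was the mean log2 CPM of the 5 suprabasal markers, Krt1, Krt10, Krt2, Dsg1a and Dsc1. Of these, Dsg1a and Dsc1 are desmosomal cadherins and not keratins. Across the 18 libraries, 9 of the 10 genes correlated with this score at a permutation p under 0.05 adjusted over the 10, with all but Evpl passing. That count takes the 3 groups together. The share of all genes tested that would correlate with this score in the same way was not worked out. On values centred on group means 9 also passed, with Evpl in (r = 0.55, adjusted p = 0.01839) and Tgm1 out (r = 0.37, adjusted p = 0.1301), and by Spearman's rho all 10 passed, Evpl at 0.04495. Tgm1 also missed the threshold when the 2 libraries with the most distant scores were left out (adjusted p = 0.1124). Pearson r ran from 0.44 for Evpl to 0.92 for Sbsn and Spearman rho from 0.48 to 0.93. Leaving out the 2 libraries with scores farthest from the median gave r of 0.25 to 0.94. Within groups of 6, r ran from -0.14 to 0.85 with detergent B, 0.46 to 0.96 with detergent A and 0.42 to 0.93 with PBS. With the mean log2 CPM of Krt1 and Krt10 alone as a covariate, none of the 10 genes passed edgeR's test for detergent B against PBS. No gene of all 16836 passed either, with a lowest edgeR adjusted p of 0.6184. In that fit the log2 fold change was 0.42 for Ivl, 0.24 for Calml3 and 0.07 for Cdsn. Krt1 itself rose with detergent B, so that fit cannot separate these keratins from the treatment. The part of the keratins in the result was not tested.

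Hair follicle genes ran the other way across the libraries. The hair shaft sums are given above, and those of 7 inner root sheath genes had a lowest, median and highest value of 12.7, 152.0 and 3738 CPM with detergent B, 3.92, 696.0 and 4643 CPM with detergent A, and 142.0, 4709 and 6475 CPM with PBS. None of the 9 hair shaft genes passed edgeR's test for detergent B against PBS, although their median log2 fold change was -2.86. An unadjusted p under 0.05 was found for 8 of them, and for 3931 of all 16836 genes tested. All 10 genes correlated negatively with the hair shaft score, the mean log2 CPM of those 9 genes, and 9 passed at a permutation p under 0.05 adjusted over the 10, with Lor outside at 0.05535. That count too takes the 3 groups together, and the share of all genes tested that would pass was not worked out. On values centred on group means 7 passed, with Lor in (adjusted p = 0.01886) and Tgm1 (0.0711), Tgm3 (0.05722) and Calml3 (0.05722, all adjusted p) out, and by Spearman's rho all 10 passed, Lor at 0.03848. Pearson r was -0.89 for Krtdap, -0.86 for Sbsn and -0.81 for Ivl, and -0.45 for Lor, and Spearman rho ran from -0.87 to -0.49. Leaving out the 2 libraries with scores farthest from the median gave r of -0.92 to -0.48, with Evpl then missing the threshold (adjusted p = 0.0581). Within groups of 6, r ran from -0.97 to -0.26 with detergent B, -0.90 to -0.34 with detergent A and -0.94 to -0.09 with PBS, and an exact permutation test, unadjusted, passed 2, 2 and 1 of the 10 genes in those groups. With the hair shaft score as a covariate, the log2 fold change for detergent B against PBS was 0.72 for Ivl, 0.56 for Calml3 and 0.48 for Cdsn, and none of the 10 genes passed edgeR's test (adjusted p of 0.09827 for Ivl, 0.145 for Calml3 and 0.3493 for Cdsn). No gene of all 16836 passed in that fit either, with a lowest edgeR adjusted p of 0.09005. Sums of melanocyte and sebaceous gland markers are given beside these values, and their part in the result was not tested. The summed CPM of 5 melanocyte markers had a lowest, median and highest value of 87.2, 194.0 and 395.0 with detergent B, 55.5, 279.0 and 536.0 with detergent A, and 66.7, 463.0 and 525.0 with PBS. For 6 sebaceous gland markers they were 991.0, 1364 and 1495 with detergent B, 870.0, 1475 and 1735 with detergent A, and 656.0, 916.0 and 1491 with PBS. PBS replicate 6 had the lowest PBS melanocyte sum and the highest PBS sebaceous sum, and none of these 11 markers passed edgeR's test for detergent B against PBS, with 3 sebaceous and 0 melanocyte markers at an unadjusted p under 0.05.

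**Figure D4:**
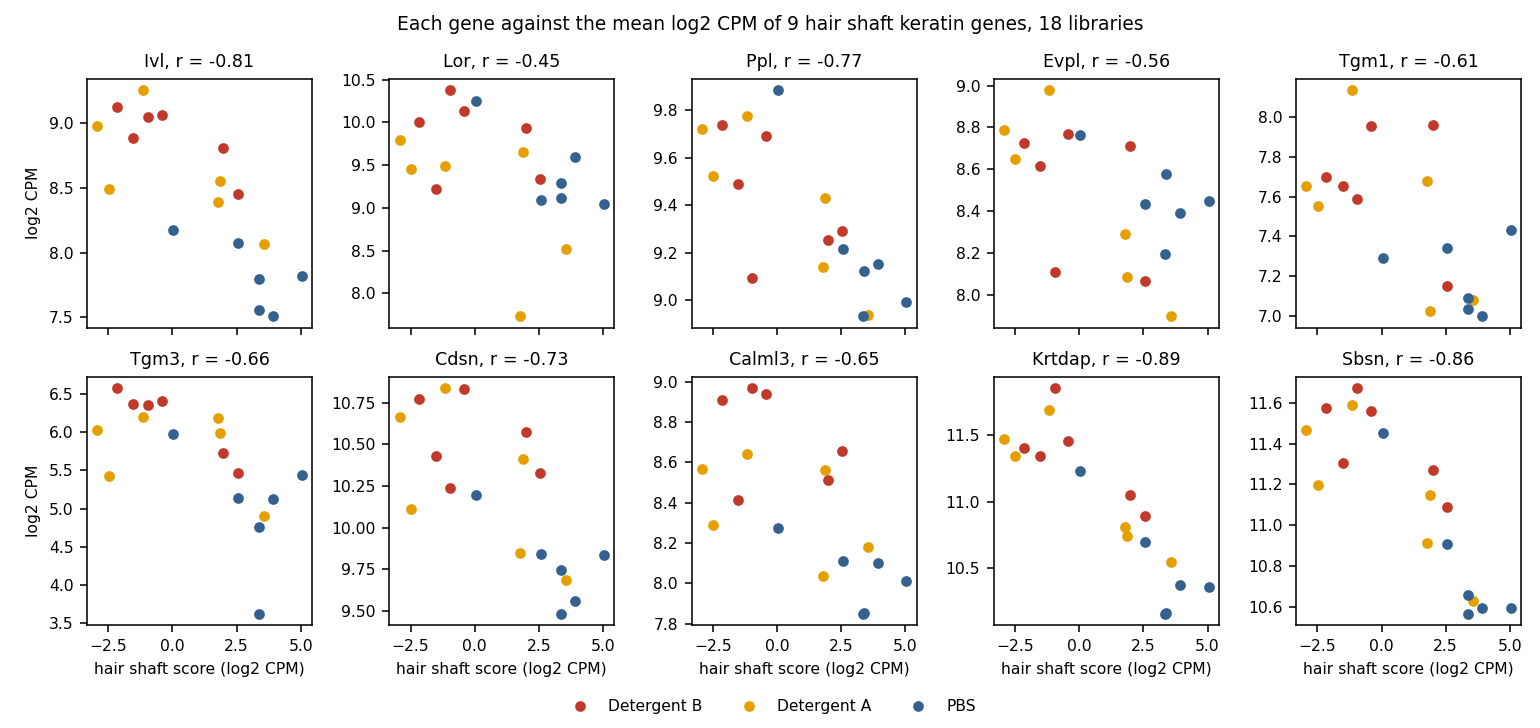
Log2 CPM of each gene (vertical axis) against the hair shaft score, the mean log2 CPM of 9 hair shaft keratin genes (horizontal axis), with 1 point per library coloured by detergent B, detergent A and PBS, and Pearson r over the 18 libraries above each panel. All 10 r values are negative, from -0.89 for Krtdap to -0.45 for Lor.

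The wider set of envelope genes was read by list, with counts from the same edgeR fit, in which 1.97% of all genes were called higher with detergent B and 1.08% lower. The counts depend on the libraries. Over fits that left out 1 library each, the number called higher ran from 1 to 8 for other envelope proteins, 1 to 8 for corneodesmosome genes, 0 to 11 for lipid envelope genes, 0 to 3 for cystatins and cathepsins and 1 to 3 for Dmkn and the calmodulins, and the lowest of each included the fits without PBS replicate 2 and without PBS replicate 3. With the hair shaft score or the Krt1 and Krt10 score as a covariate, no gene of the 7 lists passed for detergent B, nor did any of all 16836 genes. Among 21 other envelope proteins tested, 5 rose with detergent B and 0 fell, with a median log2 fold change of 0.47. Rptn (repetin, an S100-fused protein like filaggrin) rose 4.26-fold, at 993.0 ± 464.0 CPM with detergent B against 233.0 ± 129.0 CPM with PBS. Hrnr (hornerin) rose 2.59-fold, Flg (filaggrin, source of the natural moisturising factor) 2.42-fold and Casp14, the protease that acts in filaggrin breakdown, 2.40-fold. Without PBS replicate 6, the list had 7 genes higher and 1 lower, in a fit that called 1157 of all genes higher and 731 lower. Of the 5 other transglutaminases tested, none passed with edgeR, and the median was -0.05. As with 3931 of all 16836 genes tested, 2 of the 5 had an unadjusted p under 0.05. Those were Tgm7, at 0.289 ± 0.149 CPM with detergent B and 1.03 ± 0.765 CPM with PBS, and Tgm5, at 85.1 ± 18.4 CPM with detergent B and 54.4 ± 20.4 CPM with PBS (SD, n = 6 each). DESeq2 called 1 transglutaminase higher and 1 lower, and voom 1 higher and 2 lower. Over all genes DESeq2 called 829 higher and 562 lower of 28046, and voom 2563 higher and 2511 lower of 16836.

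Among 12 corneodesmosome partners and proteases of Cdsn, 5 rose with detergent B and 0 fell, with a median log2 fold change of 0.60. Klk8, Klk5 and Klk7, kallikrein proteases of which Klk5 and Klk7 cut corneodesmosin during shedding, rose 1.80-fold, 1.77-fold and 1.61-fold. The desmosomal cadherins Dsg1b and Dsc1 rose 1.78-fold and 1.72-fold. Dsg1b has near-identical copies, so its reads may be split, and Dsc1 is also among the 5 suprabasal markers. Among 12 lipid envelope genes, 8 rose with detergent B and 0 fell, against 1.97% and 1.08% of all genes, with a median of 0.63. They included Sdr9c7 at 1.96-fold, Cers3 (a ceramide synthase for very long acyl chains) at 1.77-fold, the lipid transporter Abca12 at 1.69-fold and the epoxide hydrolase Ephx3 at 1.58-fold. Of 8 cystatin and cathepsin genes that govern transglutaminase processing, Ctsd at 1.43-fold and Ctsh at 1.42-fold rose, with a median of 0.28. Of 7 genes made up of Dmkn and the calmodulin family, Calm4 rose 2.66-fold, at 4506 ± 1014 CPM with detergent B against 1696 ± 424.0 CPM with PBS, and Dmkn 1.61-fold, with a median of 0.51. Without PBS replicate 6, the counts called higher were 8 of 12 for corneodesmosome genes, with 1 lower, 11 of 12 for lipid envelope genes, 3 of 8 for cystatins and cathepsins, and 3 of 7 for Dmkn and the calmodulins, with 1 lower. Over all genes that fit called 1157 higher and 731 lower.

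Of 27 regulators of keratinocyte differentiation, none passed edgeR's test with detergent B, and the median was 0.01. An unadjusted p under 0.05 was found for 11 of the 27, and for 3931 of all 16836 genes tested. DESeq2 called 1 higher and 2 lower, and voom 6 higher and 6 lower. Over all genes DESeq2 called 829 higher and 562 lower of the 28046 it was run on, and voom 2563 higher and 2511 lower of 16836. The smallest p-values were those of Fos, an AP-1 subunit, at 19.5 ± 11.4 CPM with detergent B and 55.0 ± 34.4 CPM with PBS (SD, n = 6 each, edgeR adjusted p = 0.05967), and Prdm1, a transcriptional repressor, at 86.4 ± 9.89 CPM with detergent B and 62.0 ± 14.1 CPM with PBS (adjusted p = 0.07759). With detergent A, 0 genes of any of these 7 lists passed edgeR's test, although the lipid envelope list had a median log2 fold change of 0.62. All 12 of its genes had an unadjusted p under 0.05, as had 3158 of all 16836 genes tested. DESeq2 called 11 of those 12 higher with detergent A and voom 12, and edgeR called 12 without PBS replicate 6. Over all genes these 3 fits called 462, 1892 and 565 higher.

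**Figure D5:**
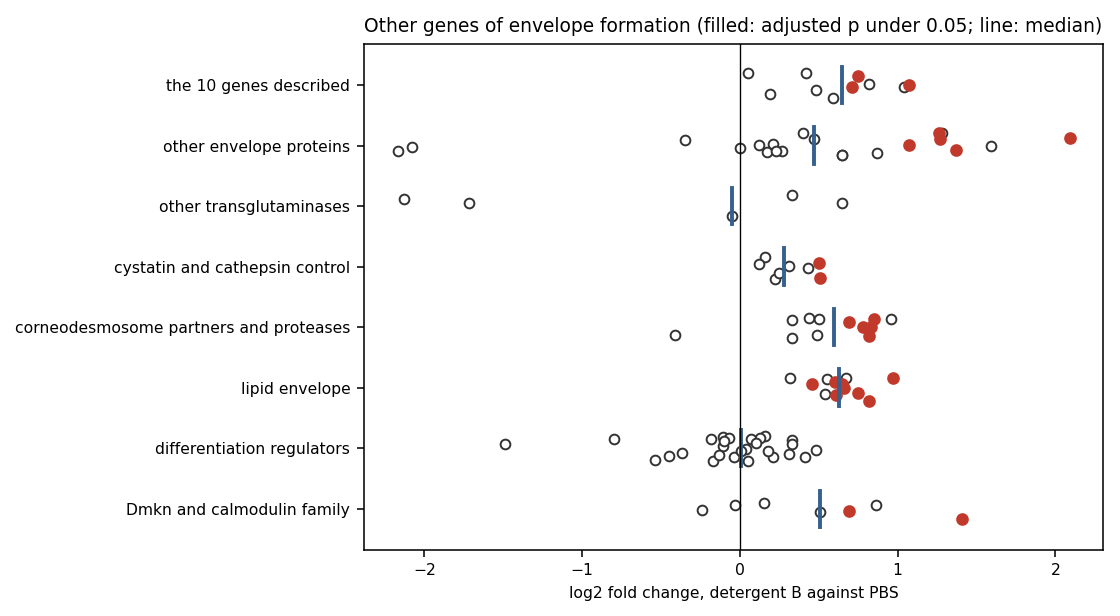
Log2 fold changes for detergent B against PBS (horizontal axis) of the 10 genes and of 7 lists of other envelope genes (rows), with 1 point per gene, filled where edgeR's adjusted p was under 0.05, and a line at each median. The medians are 0.65 for the 10 genes, 0.63 for the lipid envelope, 0.60 for corneodesmosome genes and 0.01 for differentiation regulators.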

How the data were processed

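The authors deposited whole-number counts of reads per gene, 1 file per library, with no normalization. Reads were processed with STAR, featureCounts and the GRCm38.p5 build, per the submitters' processing notes. The sources used here do not give versions, annotation release, strand setting or how multiply mapped reads were counted. Of 41605 gene identifiers, 41519 were matched to GENCODE M21.

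Tests used edgeR 4.0.16 (R 4.3.3) on the counts as deposited: filterByExpr kept 16836 genes, holding at least 99.89% of each library's counts, and a robust quasi-likelihood fit of group alone used all 18 libraries after TMM scaling, leaving 15 residual degrees of freedom. P-values were adjusted by Benjamini-Hochberg over all genes tested at 0.05, and a gene past that is said to have risen or fallen. The SE of a log2 fold change was obtained from its F statistic. Log2 CPM used a prior count of 2, and correlations used 100000 permutations. The scaling and the group model were checked on simulated counts with known changes. Those counts were drawn independently for each gene, so the check does not cover variation shared by many genes, as among the hair genes here.

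The 10 genes, the gene lists and the settings were chosen with earlier results of these data known. Named in the text are the 10 genes, up to 4 genes per list with the largest change among those past the threshold for detergent B with at least 1 CPM (else the 2 smallest p-values), the 3 most alike genes of each, and Krt1, Krt10, Krt5 and Krt14. Klk7, Jun, Junb and Jund were named after their values were seen. List counts under other settings were added after seeing the data.

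Replicate numbers were not used to pair libraries in the main fit. Of 18 same-numbered pairs, 8 had a correlation of deviations above 0.1, with a range of -0.348 to 0.546. With no range for differently numbered pairs beside them, these values cannot decide whether the numbers pair libraries. The chi-square per gene between any 2 libraries was at least 8.892, so none was a repeat deposit. Alternatives were DESeq2 1.42.0, limma 3.58.1 voomWithQualityWeights, other size factors and filters, and a replicate block. The hair shaft score, or the Krt1 and Krt10 score (the keratin covariate), was also added as a covariate. Further fits left out hair genes, used only the 12 libraries compared, or left out each library in turn.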

Additional observations from a re-analysis of the deposited data

Results flagged for a closer look

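In the PBS group, 1 library stood far from the other 5 for 3 of the 10 genes, by a gap between the highest value and the next that was large against the whole range of the group. For Lor, PBS replicate 6 had 1218 CPM, and the next library had 772.0 CPM. For Ppl it had 944.0 CPM, and the next had 594.0 CPM. For Sbsn it had 2804 CPM, and the next had 1923 CPM. All 3 values come from the same library, which also had the lowest hair shaft sum of its group, 13.1 CPM. Chance marks about 1 in 20 groups in this way, and 30 groups were looked at, each a gene in 1 treatment.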

How the results depend on the processing

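For detergent B against PBS, 3 of the 10 genes passed with all libraries and edgeR. The count was 0 with the hair shaft score and 0 with the Krt1 and Krt10 score as a covariate, 5 with only the 12 libraries compared, 6 with DESeq2 and 8 with voom, and 2 to 7 with 1 library left out (6 without PBS replicate 6, 6 without detergent A replicate 2, 5 without detergent B replicate 1 and 7 without detergent B replicate 3). Ivl and Calml3 passed in 18 of 18 fits with a library left out and 10 of 12 other settings. Over all genes the count was 514, and 961 with total counts only (271 higher and 690 lower, against 332 and 182), 251 with no filter, 0 with either covariate (1722 genes with an unadjusted p under 0.05 for hair shaft and 1181 for the keratins), 1391 with DESeq2, 5074 with voom and 28 to 1888 with a library left out, lowest without PBS replicate 3 and highest without PBS replicate 6. For detergent A against PBS the count of 0 was 1 with total counts only, 1 with DESeq2, 7 with voom and 0 to 2 with a library left out. Over all genes it was 32, and 220 with total counts only, 0 with either covariate (1630 and 1804 unadjusted), 777 with DESeq2, 3914 with voom and 0 to 888 with a library left out, with 888 without PBS replicate 6, 847 without detergent A replicate 2 and 769 without detergent A replicate 6. For detergent B against detergent A every count was 0. An unadjusted p under 0.05 was found for 550 of 16836 genes by edgeR, 770 of 28046 by DESeq2 and 578 of 16836 by voom. With total counts alone the median log2 fold change of all genes was -0.138 for detergent B and -0.11 for detergent A, against -0.008 and -0.009 with TMM. The causes of these differences between settings were not tested.

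With the replicate number as a block, 3 genes passed for detergent B and 0 for detergent A, as without it. The counts over all genes were 377 and 0, against 514 and 32 without the block. The lipid envelope count for detergent B was 2 with the block against 8 without it, and that of corneodesmosome genes 3 against 5. Of 18 same-numbered pairs, 4 correlated best with their own number.

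Some log2 fold changes changed sign, none of them called in the comparison concerned. For detergent B against PBS they were Lor (-0.02 with the hair shaft covariate, -0.66 with the keratin covariate), Ppl (-0.14 and -0.36), Evpl (-0.27 and -0.44, -0.08 with total counts, -0.0035 to 0.13 with a library left out) and Sbsn (-0.06 with the keratin covariate). For detergent A they were Lor (-0.34 to 0.02 with a library left out), Ppl (-0.13 with each covariate), Evpl (-0.32 and -0.28, -0.01 with upper-quartile factors, -0.10 with total counts, -0.10 to 0.12 with a library left out) and Sbsn (-0.03 with the keratin covariate). Between detergent B and detergent A, the keratin covariate gave -0.0026 for Ivl, -0.16 for Evpl, -0.03 for Tgm1, -0.11 for Tgm3, -0.01 for Cdsn, -0.12 for Krtdap and -0.03 for Sbsn. Ppl was 0.01 with upper-quartile factors, 0.02 with voom and -0.09 to 0.07 with a library left out, and Evpl was -0.07 to 0.15 with a library left out.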

Other observations

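The ratio of Lor to Ivl within a library does not depend on the scaling between libraries, and it was looked at after the values of both genes had been seen, so it is given with no test. The CPM ratio had a lowest, median and highest value of 1.26, 1.97 and 2.51 with detergent B, 0.634, 1.56 and 2.14 with detergent A, and 2.02, 2.92 and 4.24 with PBS. It lay below the lowest PBS ratio in 3 of 6 detergent B libraries and 5 of 6 detergent A libraries.

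The AP-1 subunit genes Jun, Junb and Jund were picked after their values were seen, beside the AP-1 matches upstream of Ivl, Lor, Krtdap and Sbsn. Jun averaged 70.0 ± 16.3 CPM with detergent B and 95.4 ± 5.79 CPM with PBS (SD, n = 6 each, edgeR adjusted p = 0.0788). Junb averaged 91.1 ± 40.0 CPM with detergent B and 159.0 ± 22.2 CPM with PBS (SD, n = 6 each, edgeR adjusted p = 0.1199). Jund averaged 55.7 ± 22.2 CPM with detergent B and 81.2 ± 12.0 CPM with PBS (SD, n = 6 each, edgeR adjusted p = 0.1994). None passed the threshold. Apart from Fos above, other AP-1 subunit genes are not shown, and a link between these genes and the motif matches was not tested.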
